A study of Homo sapiens with 4 samples.

Results

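The genes described here are TP73, MDM2, MDM4, PPM1D, CCNG1, RCHY1 and USP7, a relative of p53 and the genes that hold p53 in check. They were chosen by name, with earlier results of these data known. All 7 were found among the 59050 gene symbols of the deposited counts and were among the 17479 genes past the filter on low counts. RNA-seq was made of 4 libraries labelled as HepG2, a human liver tumor cell line with intact p53. The 2 untreated libraries (0 h) were compared with 2 libraries of cells given doxorubicin at 1 µg/ml for 24 h. Doxorubicin is a drug that traps topoisomerase on DNA and breaks the strands. No untreated library was labelled 24 h, so an effect of that time cannot be told apart from that of the drug. The study used the comparison to find mRNAs that respond to DNA damage, which it took to activate p53. Neither the damage nor the activity of p53 was measured in these libraries. The labels name no deletion or transgene in any group. The labels name 1 cell line, and the design text calls the 2 libraries of each group biological replicates. The titles call the groups nop53 and p53. The treatment tag of the doxorubicin libraries refers to miRNA instead, so their group was taken from the titles, the protocol and the design text.

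p53 is a transcription factor that is made and destroyed continuously in unstressed cells. MDM2 is a ubiquitin ligase that marks p53 for the proteasome, and MDM4 is its relative that binds p53, covers its activation domain and pairs with MDM2. p53 in turn switches on MDM2, PPM1D, CCNG1 and RCHY1, so that the products of its own targets bring its activity down again after damage. PPM1D is a phosphatase that removes the damage-dependent phosphates from p53 and its kinases. CCNG1 encodes cyclin G1, which brings phosphatase PP2A to MDM2. RCHY1 is a further ubiquitin ligase of p53. USP7 takes ubiquitin off MDM2, MDM4 and p53. TP73 encodes p73, a relative of p53 that binds similar DNA sites.

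The stretch of DNA that closes such a loop is the p53 response element, a pair of half-sites of 10 bases, each with C at position 4 and G at position 7. The first 2000 bases of each gene (GENCODE release 44, GRCh38) and the RefSeq promoters (GRCh38.p14, 250 bases before to 50 after a start) were searched on both strands for the p53 element consensus with no gap, those core bases kept and at most 2 mismatches elsewhere. A match was found in 1.42% of the 20033 protein-coding genes by the former window and in 0.285% of the 35116 promoters. Among the 7 genes, MDM2 and CCNG1 held a match in the first 2000 bases, and MDM2 and TP73 held one in a promoter (3 of their 18 promoters in all, with 2 overlapping promoters of MDM2 holding the same site). The matches are shown with 20 bases on each side, with the 20 bases of the element in capitals, because they mark which members carry the letters of such a site near a start. All are on the plus strand, which is the strand of the 3 genes.
MDM2, chr12:68808923-68808942, intron, base 747 of the gene, 2 mismatches: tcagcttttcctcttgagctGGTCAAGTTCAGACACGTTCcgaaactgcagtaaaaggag
CCNG1, chr5:163437926-163437945, intron, base 358 of the gene, 1 mismatch: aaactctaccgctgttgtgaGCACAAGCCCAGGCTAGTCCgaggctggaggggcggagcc
TP73, chr1:3690596-3690615, intron, base -76 from an internal RefSeq start, 2 mismatches: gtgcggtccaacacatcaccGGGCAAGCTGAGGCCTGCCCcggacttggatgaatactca
These matches are a description of letters, and binding of p53 was not measured here.

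The libraries held between 27572740 and 36272180 counts, so that 3 counts correspond to a CPM (counts per 1000000 counts of the library) of 0.083 to 0.11. Of 15 marker genes of liver, 4 had at most 3 counts in every library, ALB among them, which goes against the label of a liver cell line. APOA1, APOA2, APOB, AHSG and AMBP had at most 12 counts in any library, AFP and TF at most 47, and HNF4A at most 66. The summed CPM of the 15 was 1.43 and 5.195 in the untreated libraries and 17.2 and 20.3 in the doxorubicin libraries, so this sum differed between the compared groups. Much of it came from the fibrinogen gene FGG, at 0.165 and 0.104 in untreated and 9.76 and 14.0 in treated cells. Among 7 squamous keratin and desmoglein genes, KRT17 gave nearly all of the summed CPM (929 of 946 in untreated replicate 1 and 1587 of 1642 in doxorubicin replicate 1), while KRT5, KRT6A and DSG3 had at most 13 counts in any library. The summed CPM of 6 mesenchymal genes, most of it from VIM, was between 883 and 1289, and that of 6 blood genes at most 2.49. Untreated replicate 2 stood apart. The absolute log2 difference of a gene between replicates had a median of 0.87 for the untreated pair and 0.25 for the doxorubicin pair, and 89 histone genes took 0.331% of untreated replicate 2 against 0.0459% to 0.0565% of the other 3 libraries. The part of the marker and histone differences in the results below was not tested.

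Of the 7 genes, 0 passed the thresholds of the study (adjusted p under 0.05, with log2 fold change above or at 1 or below or at -1) between doxorubicin-treated and untreated cells in edgeR's quasi-likelihood test with Benjamini-Hochberg adjustment over all genes. The share of all 17479 genes that passed was 0%. At an unadjusted p under 0.05 there were also 0 of the 7, against 4.39% of all genes, and 0 of the 7 were called by DESeq2 (0.515% of all genes), the exact test of edgeR (0.217%), its likelihood ratio test (0.366%) and the fit with the replicate number as a block (0.114%). In bulk libraries fewer cells with a transcript and less of it per cell cannot be told apart. The fitted log2 fold changes ranged from -0.20 for PPM1D to 0.85 for MDM4, with 4 genes above and 3 below 0 and a median of 0.18, beside a median of 0.01 over all genes tested. CPM values below are scaled by the library total, while the log2 fold changes use TMM factors. Scaling by library totals instead moved the median log2 fold change of all genes up by 0.16, so the log2 of a CPM ratio lies above the fitted value by about that amount. Intervals given for CPM values are exact 95% binomial intervals, which cover counting error only.

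**Figure D1:**
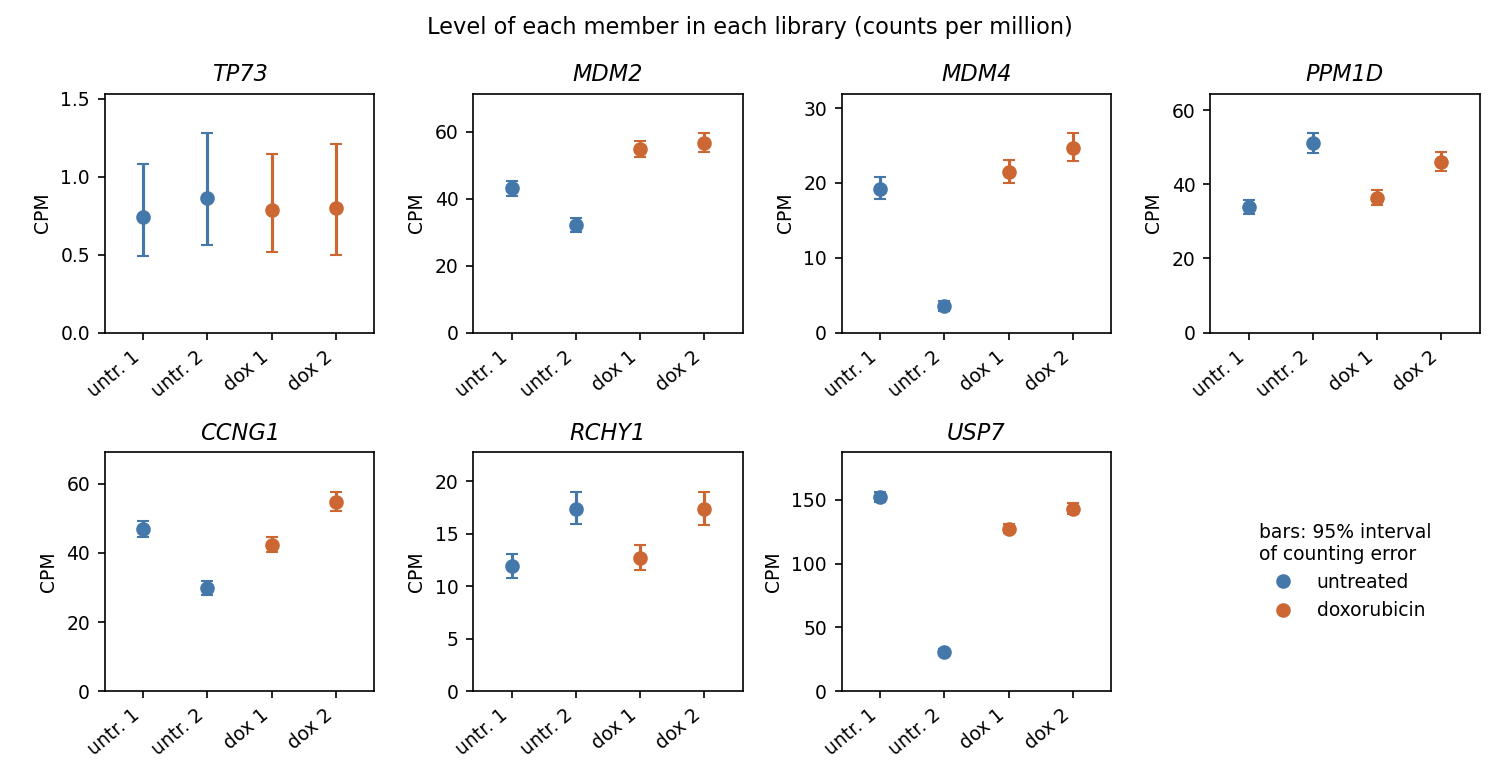
Each panel plots the CPM (counts per 1000000, vertical axis from 0) of 1 gene in each of the 4 libraries, untreated (blue) and doxorubicin (orange), with bars for the exact 95% interval of counting error. Both doxorubicin libraries lie above both untreated libraries for MDM2 and MDM4 alone, and untreated replicate 2 lies far below the other 3 libraries for MDM4 and USP7.

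MDM2, the central ligase of the loop, lies on chromosome 12 (68808177 to 68845544, GRCh38). Untreated cells gave a CPM of 43.0 (interval 40.9 to 45.2) in replicate 1 and 32.1 (30.0 to 34.2) in replicate 2, while cells given doxorubicin gave 54.8 (52.3 to 57.3) in replicate 1 and 56.6 (53.8 to 59.5) in replicate 2. Both treated libraries were above both untreated libraries, and the treated pair differed by 1.03-fold. The mean CPM was 37.5 ± 7.74 (SD, n = 2) in untreated and 55.7 ± 1.29 (SD, n = 2) in treated cells, a ratio of 1.48. For MDM2 the fit gave a log2 fold change of 0.41 with standard error 0.35 (95% interval -0.48 to 1.30, adjusted p = 0.781 in edgeR). Without untreated replicate 2 it was 0.23 (standard error 0.24, adjusted p = 0.667), and without untreated replicate 1 it was 0.71 (standard error 0.25, adjusted p = 0.0106), where 62.2% of all genes had an unadjusted p under 0.05. The estimate for MDM2 kept its sign with either untreated library, which follows from both treated libraries lying above both untreated ones. It stayed below the log2 threshold of 1 in each of the 14 alternatives, between 0.23 and 0.71.

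MDM4, the partner of MDM2, lies on chromosome 1 (204516379 to 204558120). Its CPM was 19.2 (17.8 to 20.7) in untreated replicate 1 but 3.50 (2.85 to 4.25) in replicate 2, and with doxorubicin it was 21.5 (19.98 to 23.1) in replicate 1 and 24.7 (22.9 to 26.6) in replicate 2. The groups did not overlap, but untreated replicate 1 lay close to the treated pair and untreated replicate 2, with 101 counts, had 0.182 times the CPM of untreated replicate 1. The untreated mean of 11.4 ± 11.1 (SD, n = 2) therefore had a spread as large as itself, against 23.1 ± 2.26 (SD, n = 2) in treated cells. MDM4 had a log2 fold change of 0.85 in the fit (standard error 0.78, adjusted p = 0.790 in edgeR). It was 0.11 (standard error 0.26, adjusted p = 0.865) without untreated replicate 2 and 2.64 (standard error 0.33, adjusted p = 5.3e-14) without untreated replicate 1, and over the 14 alternatives the adjusted p ran from 5.3e-14 to 1. Of all genes tested, 30.3% had both treated libraries above both untreated libraries by CPM, so that the 2 of 7 that did so here, MDM2 and MDM4, are near the share of all genes. None of the 7 had both treated libraries below both untreated ones, against 11.5% of all genes. By TMM-scaled CPM the shares were 21.3% above and 17.9% below, with MDM2 and MDM4 again above and TP73 below.

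The fits that left out 1 untreated library assume that the lone untreated library varies as the doxorubicin pair does, and the spread between the untreated libraries was over 3 times that of the treated pair by the median differences above. Without untreated replicate 1, 44.4% of all genes were called in edgeR, with MDM4 and USP7 among them as the 2 members called. Without untreated replicate 2, 4.44% of all genes and 0 of the 7 were called. The plot of fold changes sets the 3 fits side by side.

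**Figure D2:**
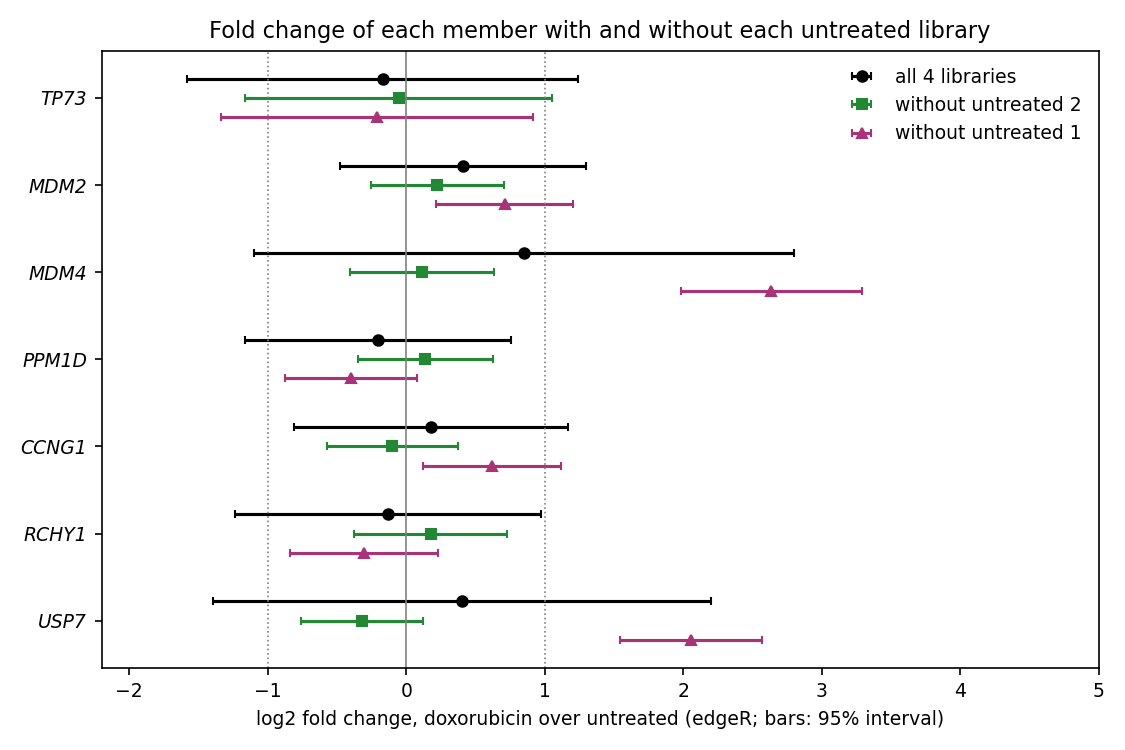
Horizontal axis, log2 fold change of doxorubicin over untreated cells in edgeR, with 95% intervals as bars, for each gene with all 4 libraries (black), without untreated replicate 2 (green) and without untreated replicate 1 (purple), and dotted lines at -1 and 1. MDM2 and MDM4 lie right of 0 and TP73 left of 0 in all 3 fits, MDM4 and USP7 move by over 2 between the green and purple fits, and PPM1D, CCNG1, RCHY1 and USP7 lie on both sides of 0.

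USP7, the deubiquitinase (chromosome 16, 8892097 to 8975328), had the most counts of the 7 in each library except untreated replicate 2. The CPM was 152 (148 to 156) for untreated replicate 1, 30.7 (28.7 to 32.8) for untreated replicate 2, 128 (124 to 131) for doxorubicin replicate 1 and 143 (139 to 148) for doxorubicin replicate 2. Untreated replicate 1 was the highest library and untreated replicate 2 the lowest, so the treated pair lay inside the untreated range. For USP7 the fit gave a log2 fold change of 0.40 with standard error 0.72 (adjusted p = 0.872 in edgeR), and over the 14 alternatives the adjusted p ran from 7.9e-14 to 1. The sign depended on the untreated library, at -0.32 (standard error 0.22, adjusted p = 0.457) without untreated replicate 2 and 2.06 (standard error 0.26, adjusted p = 7.9e-14) without untreated replicate 1.

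PPM1D, the phosphatase of the loop, lies on chromosome 17 (60600193 to 60666280). The untreated CPM was 33.7 (31.9 to 35.7) in replicate 1 and 51.0 (48.5 to 53.7) in replicate 2, and the treated CPM was 36.3 (34.4 to 38.4) in replicate 1 and 46.0 (43.5 to 48.6) in replicate 2. Here untreated replicate 2 was the highest library, and the treated libraries lay between the untreated ones. The means were 42.4 ± 12.2 (SD, n = 2) and 41.2 ± 6.85 (SD, n = 2). The difference was -0.20 on the log2 scale of the fit (standard error 0.39, 95% interval -1.16 to 0.76, adjusted p = 0.881 in edgeR), and 0.14 without untreated replicate 2.

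CCNG1, cyclin G1, lies on chromosome 5 (163437569 to 163446151). Without the drug its CPM was 47.0 (44.8 to 49.3) in replicate 1 and 29.8 (27.8 to 31.8) in replicate 2, and with it 42.4 (40.3 to 44.7) in replicate 1 and 54.9 (52.1 to 57.7) in replicate 2. The groups overlapped, since doxorubicin replicate 1 lay below untreated replicate 1. The treated pair was 1.29-fold apart, with intervals of counting error that did not meet. For CCNG1 the fit gave a log2 fold change of 0.18 with standard error 0.40 (95% interval -0.81 to 1.17, adjusted p = 0.896 in edgeR), and it was -0.10 without untreated replicate 2 and 0.62 without untreated replicate 1.

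RCHY1, a further ligase of p53, lies on chromosome 4 (75479033 to 75514764). The CPM was 11.9 (10.8 to 13.1) in replicate 1 and 17.4 (15.9 to 18.97) in replicate 2 of untreated cells, and 12.7 (11.5 to 13.9) in replicate 1 and 17.3 (15.8 to 18.9) in replicate 2 of treated cells. In each group replicate 1 was low and replicate 2 high, and the means of 14.6 ± 3.87 (SD, n = 2) and 15.0 ± 3.29 (SD, n = 2) were closer than the replicates. Its fitted log2 fold change was -0.13 (standard error 0.44, 95% interval -1.24 to 0.98, adjusted p = 0.934 in edgeR). That sign turned to 0.03 with library totals as the scaling, to 0.18 without untreated replicate 2 and to 0.09 without doxorubicin replicate 1.

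TP73, the relative of p53 (chromosome 1, 3652516 to 3736201), was the least abundant of the 7. It had 27 and 25 counts in the untreated libraries and 27 and 22 in the treated ones, which is, in that order, a CPM of 0.744 (0.490 to 1.08), 0.866 (0.560 to 1.28), 0.787 (0.518 to 1.15) and 0.798 (0.500 to 1.21). All 4 intervals overlapped. For TP73 the fit gave a log2 fold change of -0.17 with standard error 0.56 (95% interval -1.58 to 1.24, adjusted p = 0.932 in edgeR), an interval that takes in a 2-fold difference in either direction. The intervals of the other 6 genes also reached a 2-fold difference in at least 1 direction, and those of MDM4 (-1.10 to 2.80) and USP7 (-1.40 to 2.20), with more counts, were wider than that of TP73. By TMM-scaled CPM the treated libraries lay below the untreated ones, by less than the counting intervals. TP73-AS1, which is annotated on the opposite strand and shares 32 exonic bases with TP73, had between 432 and 1304 counts, and the use of strand in the counting is not given in the sources used here.

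Other overlapping annotations could also share reads with these genes. In MDM2, a lncRNA on the opposite strand covers 785 exonic bases and a processed pseudogene on the same strand covers 439, and neither was matched to a symbol of the counts. WRAP73 (309 to 995 counts) starts inside TP73, CPM, the carboxypeptidase gene (106 to 300 counts), ends inside MDM2, and THAP6 (178 to 251 counts) starts inside RCHY1, each on the opposite strand and with 0 shared exonic bases. RNU6-623P in PPM1D had at most 2 counts.

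The balance of MDM2 to MDM4 within a library does not depend on the scaling between libraries. Each MDM4 count came with 2.23 MDM2 counts in untreated replicate 1 and 9.17 in untreated replicate 2, and with 2.55 and 2.29 in the doxorubicin libraries. Untreated replicate 2 was thus far above the other 3, which lay within a narrow range. The mean log2 ratio was 2.18 ± 1.44 (SD, n = 2) in untreated and 1.27 ± 0.11 (SD, n = 2) in treated cells, and the difference of -0.91 had p = 1 in a two-sided exact permutation test over the libraries, in which the smallest possible p is 0.333. Without untreated replicate 2 the difference was 0.11.

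Levels of different genes were compared per kilobase of exon (RPKM, from the CPM and the exonic length of the basic transcripts in GENCODE release 44). Outside untreated replicate 2, USP7 (20.5 to 24.5) and CCNG1 (17.2 to 22.2) had the highest RPKM with overlapping ranges, followed by MDM2 (5.59 to 7.35) and PPM1D (5.28 to 7.20), whose ranges also overlapped. RCHY1 (2.69 to 3.90), MDM4 (1.88 to 2.41) and TP73 (0.134 to 0.144) came next, each apart from its neighbours in that order. In untreated replicate 2 the RPKM was 12.1 for CCNG1, 7.99 for PPM1D, 4.94 for USP7, 4.17 for MDM2, 3.92 for RCHY1, 0.341 for MDM4 and 0.156 for TP73. USP7 thus ranked behind CCNG1 and PPM1D in that library, and PPM1D came before MDM2.

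How far each gene departed in untreated replicate 2 was measured as its log2 CPM (TMM-scaled) minus the mean of the other 3 libraries. The difference was -2.51 for MDM4 and -2.09 for USP7, with 3.03% and 5.81% of all genes tested lying lower. MDM2 (-0.57) and CCNG1 (-0.58) were lower by similar amounts. TP73 (0.24), RCHY1 (0.44) and PPM1D (0.51) were higher. Untreated replicate 2 was the lowest library by CPM for 4 of the 7, as for 45% of all genes, and the highest for the other 3, as for 36.6% of all genes. Doxorubicin replicates 1 and 2 differed by 0.04 (MDM2) to 0.36 (RCHY1) on the same log2 scale. Across the 14441 genes tested that had an annotation, this difference had a Spearman correlation of -0.337 with exonic length and of 0.230 with exonic GC content, a description across genes of the same libraries. MDM4 has an exonic length of 10252 bases, the longest of the 7, and USP7 of 6213, against a median of 3655. MDM2 (7694 bases) and CCNG1 (2470) were also lower in untreated replicate 2, while PPM1D (6388), TP73 (5559) and RCHY1 (4435) were higher. The part of length in the result was not tested.

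**Figure D3:**
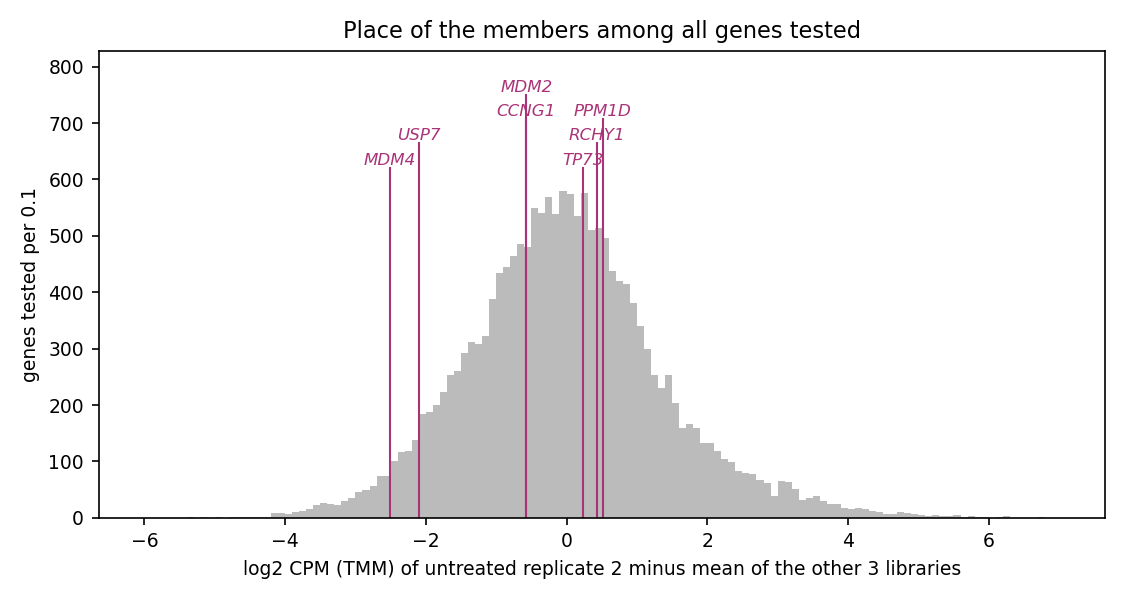
Histogram of all genes tested by the log2 CPM (TMM-scaled) of untreated replicate 2 minus the mean of the other 3 libraries (horizontal axis), as the number of genes per 0.1 (vertical axis), with the 7 genes as purple lines. MDM4 (-2.51) and USP7 (-2.09) lie in the lower tail and the other 5 lie between -0.58 and 0.51.

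The partners of these genes were followed as 6 lists, for which 0 genes were called in the comparison of all 4 libraries, as for all genes. Each list held at most 1 gene with an unadjusted p under 0.05 in edgeR, beside 4.39% of all genes. For the counts above 0 given below, 8873 of all 17479 genes tested were above 0 with all libraries. Without untreated replicate 2 this held for 9963 of 18356 genes. Unless marked otherwise, the genes named below are the 2 of each list with the smallest unadjusted p. The PP2A phosphatase that cyclin G1 recruits held the gene with the smallest unadjusted p of the 6 lists. PPP2R5B, a regulatory B56 subunit of PP2A (chromosome 11, 64917553 to 64934475), had 17.9 and 16.0 CPM in untreated and 48.0 and 44.1 CPM in treated cells. The groups lay apart by more than the spread of either pair. Both treated libraries were above both untreated ones by CPM, as for 30.3% of all genes. A choice by the smallest unadjusted p favours such a separation. PPP2R5B had a log2 fold change of 1.29 with standard error 0.37 (unadjusted p = 0.0143, adjusted p = 0.773 in edgeR). The log2 fold change was 1.22 without untreated replicate 2 and 1.45 without untreated replicate 1, and between these values over 14 alternatives. PPP2R1A, the scaffold subunit of PP2A, had 484 and 507 against 413 and 346 (log2 fold change -0.54, standard error 0.28, adjusted p = 0.773). Of the 11 genes of cyclin G2, the kinase GAK and the PP2A subunits, 6 were above and 5 below 0, with a median log2 fold change of 0.03.

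Without untreated replicate 2, 2 of these 11 were called as higher in treated cells and 0 as lower, beside 3.88% and 0.556% of all genes, namely PPP2R5B and CCNG2. CCNG2, the relative of CCNG1, was chosen for mention after its values were seen. Its CPM was 8.30 in untreated replicate 1, 77.3 in untreated replicate 2, and 26.0 and 33.7 in treated cells, so the treated pair lay between the untreated libraries. Its log2 fold change was 1.69 without untreated replicate 2 and -1.46 without untreated replicate 1, so the sign depended on the untreated library.

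The other ubiquitin ligases and deubiquitinases of p53 or MDM2 numbered 19, with 10 above and 9 below 0 and a median log2 fold change of 0.07. TRIM28, which works with MDM2 on p53, had a CPM of 736 and 1229 in untreated and 593 and 540 in treated cells (log2 fold change -0.95, standard error 0.34, unadjusted p = 0.0355, adjusted p = 0.773 in edgeR). OTUB1, which restrains the ubiquitination of p53, had 120 and 157 against 103 and 81.7 (log2 fold change -0.74, standard error 0.34, adjusted p = 0.773). Both were lower by CPM in each treated library than in each untreated one, as were 11.5% of all genes. They were named as the 2 of the 19 with the smallest unadjusted p, a choice that favours such a separation. USP2, a deubiquitinase of MDM2 named after its values were seen, had 19.2 and 2.98 in untreated and 10.8 and 9.43 in treated cells, with a log2 fold change of -1.07 without untreated replicate 2 and 1.68 without untreated replicate 1. It was the 1 gene of the 19 called in the former fit, beside 4.44% of all genes (adjusted p = 0.00392 in edgeR, with a range over 14 alternatives from 8.7e-06 to 1). Without untreated replicate 1, 6 of the 19 were called as higher and 3 as lower, beside 21.2% and 23.2% of all genes.

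The 10 ribosomal and nucleolar proteins that bind MDM2 had 2 genes above and 8 below 0, and their median log2 fold change was -0.29 with all libraries and -0.31 without untreated replicate 2. RPS3 had a CPM of 1279 and 1565 in untreated and 1129 and 1065 in treated cells (log2 fold change -0.53, standard error 0.27, adjusted p = 0.773 in edgeR). RPL11, which holds MDM2 inactive when ribosome assembly is disturbed, had 657 and 798 against 594 and 564 (-0.48, standard error 0.27, adjusted p = 0.773). None of the 10 was called in either of these fits.

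The relatives of PPM1D numbered 11, of which 10 passed the filter, with 4 above and 6 below 0. PPM1G had a CPM of 315 and 234 in untreated and 239 and 224 in treated cells (log2 fold change -0.40, standard error 0.31, adjusted p = 0.775 in edgeR). PPM1J had 0.662 and 4.22 against 0.787 and 1.05 (-1.54, standard error 0.98, adjusted p = 0.773), and its sign turned to 0.31 without untreated replicate 2. The median of the list, -0.05, also turned to 0.07 without that library.

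Of the 10 cofactors and regulators of p53 family activity, 9 were above 0, with a median log2 fold change of 0.20, and 5 were above 0 without untreated replicate 2, with a median of 0.05. JMY, a coactivator of p53 that works with p300, had a CPM of 24.2 and 15.5 in untreated and 38.0 and 61.2 in treated cells (log2 fold change 1.15, standard error 0.44, unadjusted p = 0.0423, adjusted p = 0.773 in edgeR). It was 0.88 without untreated replicate 2 (adjusted p = 0.0162, over the 14 alternatives from 4.5e-08 to 1). ITCH, a ubiquitin ligase of p73, had 44.97 and 16.0 against 47.4 and 65.5 (0.72, standard error 0.56, adjusted p = 0.775).

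Among 26 further p53 target genes, which serve as a yardstick for the loop and were chosen as such with results of these data known, 24 passed the filter. Their median log2 fold change was -0.28 with 9 above 0, and 0.25 with 18 above 0 without untreated replicate 2, where the median of all genes was 0.05. In the latter fit 2 of the 24 were called as higher and 0 as lower, beside 3.88% and 0.556% of all genes, which are GDF15, a secreted stress cytokine, and CDKN1A, the cell cycle inhibitor p21. Without untreated replicate 1 the median was -0.44, and 0 of the 24 were called as higher and 5 as lower, beside 21.2% and 23.2% of all genes, with CDKN1A at a log2 fold change of 0.04 and GDF15 at 0.85 among those not called. CDKN1A had a CPM of 380 and 866 in untreated and 1003 and 880 in treated cells, so that its untreated replicates were further apart than those of MDM2. Its log2 fold change was 0.44 with all libraries (standard error 0.44) and 1.16 without untreated replicate 2. FDXR, a mitochondrial reductase, had 54.2 and 172 in untreated and 64.4 and 44.03 in treated cells (log2 fold change -1.21, standard error 0.61, adjusted p = 0.773 in edgeR), and -0.14 without untreated replicate 2. GDF15 had a CPM of 191 and 448 against 832 and 877. Its log2 fold change was 1.26 with all libraries (standard error 0.45, unadjusted p = 0.0333 and adjusted p = 0.773 in edgeR) and 2.01 without untreated replicate 2.

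**Figure D4:**
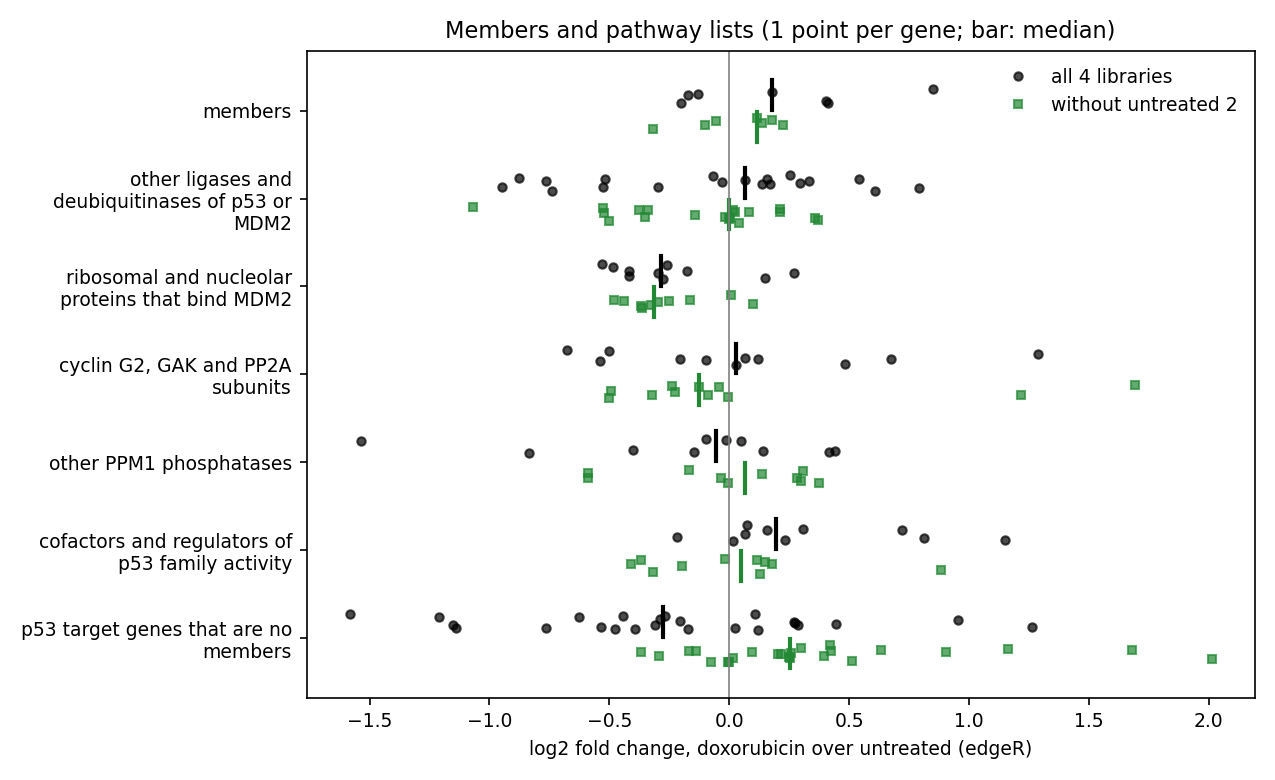
Horizontal axis, log2 fold change of doxorubicin over untreated cells in edgeR, with 1 point per gene for the 7 members and the 6 lists, with all 4 libraries (black circles) and without untreated replicate 2 (green squares), and a bar at each median. The 7 members draw together between -0.32 and 0.23 without untreated replicate 2, and the median of the further p53 targets moves from -0.28 to 0.25.

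Genes whose pattern over the 4 libraries was most like that of MDM2, by the root mean square difference of centred log2 CPM, included LINC01515 (0.00833) and BTN2A3P (0.0189). LINC01515 had a CPM of at most 0.834, and 259 genes lay within 0.1 of MDM2 by this measure. Of the other members CCNG1 was nearest to MDM2, at 0.178, with 1313 genes nearer, and MDM4 was the farthest, at 0.844.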

How the data were processed

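RNA-seq of 4 libraries labelled as HepG2, 2 untreated and 2 doxorubicin-treated, was used. Per the methods of the study, FastQC and Cutadapt served for quality filtering and adapter removal, HISAT2 for mapping (hg38) and HTSeq for gene counting. The layout of the counts, with a Geneid column under a line naming the annotation, is not that of plain HTSeq output, so how reads in overlapping genes were counted is uncertain. The counts were deposited raw, with 1 file for each library. The header names the basic annotation of GENCODE release 31. Tool versions and the use of strand are not given in the sources used here. Gene positions and exonic lengths came from GENCODE release 44 on the same build, matched by symbol (36434 of 59050 symbols, including all 7 members).

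The fits were made with edgeR 4.0.16 under R 4.3.3 (filtering by filterByExpr, TMM, glmQLFit with legacy = FALSE, glmQLFTest, prior count 0.125 for the log2 fold change). Calls required a Benjamini-Hochberg adjusted p under 0.05 over all genes tested with log2 fold change above or at 1 or below or at -1, the thresholds of the study. A negative binomial simulation was used to check the script. DESeq2 1.42.0, Python 3.11.15, SciPy 1.17.1, pandas 2.3.3 and NumPy 2.4.6 were also used. CPM was the count divided by the library total. Depth was 27572740 to 36272180 counts per library, and no molecular identifiers are named. The design text calls the libraries biological replicates, and p-values measure only the spread between them. In the fits without 1 untreated library that spread comes from the doxorubicin pair.

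The members and lists were chosen with earlier results of these data known. Named genes were the members, the 2 genes of each list with the smallest unadjusted p, the 3 genes most like MDM2 and genes overlapping a member. A gene that this rule names is not reported here. Others named are marked as chosen after their values were seen, which holds also for CDKN1A. Alternatives were DESeq2, the exact and likelihood ratio tests, RLE factors or library size alone, no filter, a filter that kept genes with 2 or more libraries at a CPM of 1 or higher, the replicate number as a block, the prior count raised to 2, and leaving out each library. The quasi-likelihood fit with legacy = TRUE was added after seeing the data.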

Additional observations from a re-analysis of the deposited data

How the results depend on the processing

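Among the 7 genes, 0 were called in edgeR's quasi-likelihood test, and 0 under every alternative except the one without untreated replicate 1, so that the count ranged from 0 to 2 with each library left out. Over all genes the count of 0 moved to 90 with DESeq2, 38 with the exact test, 64 with the likelihood ratio test and 20 with the replicate block, and ranged from 0 to 8697 with each library left out (815 without untreated replicate 2, 8697 without untreated replicate 1). The cause was not tested.

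The labels give both groups the same replicate numbers. Across genes, the correlation between the deviations (library minus group mean) of libraries sharing a number was 0.0219. The untreated pair differed far more than the treated pair (medians of 0.87 and 0.25). This correlation therefore cannot decide whether libraries with the same number shared more than that number. The main fit left the number out, and the block was run as an alternative. With the replicate block the log2 fold changes were 0.43 for MDM2, 1.28 for MDM4 and 0.82 for USP7, and 0 of the 7 were called.

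Of 69 values of the 7 genes under alternatives that kept all libraries, 68 kept the sign and the call by both thresholds together, and 1 turned, RCHY1 with library size alone (0.030). MDM4 passed the log2 threshold of 1, without passing that on adjusted p, with library size alone (1.01) and with the replicate block (1.28). With each library left out, log2 fold changes turned for PPM1D (-0.40 to 0.14), CCNG1 (-0.10 to 0.62), RCHY1 (-0.31 to 0.18) and USP7 (-0.32 to 2.06), each without untreated replicate 2 and RCHY1 also without doxorubicin replicate 1. The log2 ratio of MDM2 to MDM4 differed between groups by -1.93 to 0.11 in the same way.

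The medians of the lists moved by more than their spread between replicates in these cases. With library size alone they were -0.13 for the ribosomal and nucleolar proteins, 0.19 for cyclin G2, GAK and PP2A and 0.10 for the PPM1 phosphatases, each a move of the same size as the shift of 0.16 of all genes under that scaling. With each library left out the ranges were -0.0013 to 0.68 for ligases and deubiquitinases, -0.13 to 0.37 for cyclin G2, GAK and PP2A, -0.10 to 0.066 for the PPM1 phosphatases, 0.048 to 1.03 for the cofactors and -0.44 to 0.25 for the p53 targets. TP73 had the fewest counts of the 7, at most 27 per library, and was not tested at the filter of a CPM of at least 1.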
